A study of Mus musculus with 6 samples.

Results

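The 10 genes described here encode the cyclins, kinases and inhibitors that act in the G1 phase of the cell cycle: the D-type cyclins Ccnd1, Ccnd2 and Ccnd3, the E-type cyclins Ccne1 and Ccne2, the kinases Cdk2, Cdk4 and Cdk6, and the CDK inhibitors Cdkn1b and Cdkn2c. They were taken by name, and all 10 of 10 were among the 12151 genes listed and the 12006 genes tested. Their RNA was measured in 6 libraries of cultured mouse glioma cells. The GL261 group, labelled as differentiated glioma cells, had 3 libraries of the GL261 line grown in medium with serum, from passages 17, 33 and 34 by their titles; the passage field of the last of these says 33. The mNS group, labelled as stem-like glioma neurospheres, had 3 libraries from passages 72, 77 and 85, grown in serum-free neurosphere medium with B-27, basic FGF, EGF and heparin. Both media held penicillin, streptomycin, HEPES, glutamine and β-mercaptoethanol, and both cultures were harvested in log phase. The culture, its medium and its passage number changed together between the groups and cannot be told apart, each group is a single culture line, and no label tells whether a group's libraries were grown as separate cultures. The p-values below therefore measure the spread between these libraries only.

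In G1, growth factor signals raise the D-type cyclins, which bind Cdk4 and Cdk6 and start the phosphorylation of the retinoblastoma protein and its relatives. That phosphorylation frees E2F factors, which switch on the genes of S phase, among them the E-type cyclins, the partners of Cdk2. Cdkn2c (p18Ink4c) is an INK4 inhibitor and binds Cdk4 and Cdk6 alone, whereas Cdkn1b (p27Kip1) is a CIP/KIP inhibitor that binds cyclin and kinase together. In glioma this pathway is known as a frequent site of change, with loss of INK4 genes and gain of Cdk4, Cdk6 or D-type cyclins.

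Levels are given as CPM, the authors' read counts per gene scaled to library size with TMM factors, as mean ± SD over the 3 libraries of a group. Differences are mNS minus GL261 on the log2(CPM + 1) scale with the standard error (SE) of the limma fit, and a gene was called where its Benjamini-Hochberg adjusted p over all genes tested was below 0.05. Libraries held 12534422 to 14225175 reads in listed genes, and a member had between 119 and 33686 reads in a library. Libraries correlated across genes at a Pearson r of 0.987 to 0.997 within a group and 0.845 to 0.856 between groups; genes are not independent replicates. Exons of 7 of the 10 genes share 34 to 1100 bases with a gene on the other strand, and since the strand settings of the counting are not given in the sources used here, reads from those bases cannot be told apart. GL261 passage 17 stood apart from the other GL261 libraries at several of these genes, as given below. All 7 glial and neural stem markers were listed, with 2 called higher in mNS, 4 lower and a median log2 difference of -0.69: Nes, Vim, Cd44 and Sox2 were at 134 CPM or more in every library, and Olig2 was at 8.54 ± 2.97 CPM in the GL261 and 437 ± 22.8 CPM in the mNS libraries (SD, n = 3 each). Fabp7 was also higher in mNS (3.24 against 89.8 CPM), and Nes (-0.69), Vim (-0.98), Cd44 (-0.71) and Gfap (-1.93, from 3.45 to 0.101 CPM) were lower on the log2 scale. Of these 7 markers 85.7% were called, beside 64.3% of all genes tested. Of markers of other cells, 2 of 5 immune genes, 0 of 5 endothelial genes, 2 of 5 fibroblast and mural genes and 1 of 5 neuron genes were listed. Their summed levels were 4.05 to 5.44 CPM in GL261 and 6.87 to 9.51 CPM in mNS for immune genes, 119 to 136 CPM and 4.64 to 8.61 CPM for fibroblast and mural genes (Col1a1 and Pdgfrb), and 223 to 247 CPM and 4.60 to 13.4 CPM for the neuron gene Tubb3. The immune genes went opposite ways, Cd68 from a mean of 2.95 to 8.09 CPM and Csf1r from 1.68 to 0.0488 CPM, the latter below the level for a test. Their part in the results was not tested, and in bulk RNA fewer cells of a type and less RNA per cell cannot be told apart.

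Of the 10 genes, 7 were called, 2 higher in mNS (Ccnd1 and Cdkn1b) and 5 lower (Ccne2, Cdk2, Cdk4, Cdk6 and Cdkn2c). Ccnd2, Ccnd3 and Ccne1 were not called. With columns scaled to a common sum, 3 were higher (Ccne1 with them) and 4 lower (without Ccne2). Such calls were common in these data: 64.3% of all genes tested were called, 32.2% higher and 32.1% lower, so the share of members called was near the background. Calls with an absolute log2 difference of at least 1 were made for 3 members (Ccnd1, Cdk6 and Cdkn2c) and for 19.7% of all genes. The 3 libraries of one group did not overlap with those of the other for 7 members and for 69.9% of all genes. The median log2 difference was -0.19 over the members and -0.0027 over all genes.

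**Figure D1:**
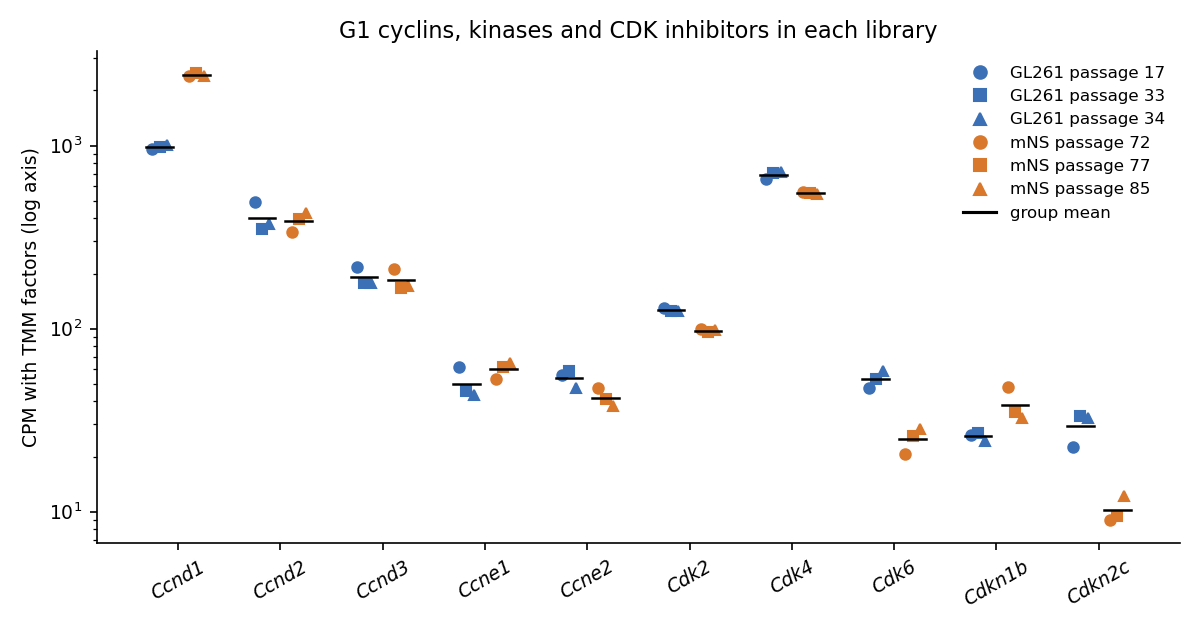
CPM of each of the 10 genes (log axis) in the 3 GL261 libraries (blue) and the 3 mNS libraries (orange), with a marker for each passage and a bar at the group mean. Ccnd1 lies at 956 to 1013 CPM in GL261 and 2385 to 2487 CPM in mNS, whereas the points of Ccnd2, Ccnd3 and Ccne1 overlap between the groups.

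Among the D-type cyclins, Ccnd1 rose 2.46-fold in mNS while neither Ccnd2 nor Ccnd3 was called. Ccnd1 encodes cyclin D1, the D-type cyclin most directly tied to mitogen signals, and lies on the minus strand of chromosome 7 at 144929931 to 144939925 (GRCm38, as are all positions here). It stood at 956, 983 and 1013 CPM in GL261 passages 17, 33 and 34 and at 2394, 2487 and 2385 CPM in mNS passages 72, 77 and 85. Every mNS library was more than 2-fold above every GL261 library. Its exons share 1100 bases with those of a gene on the other strand that the table lists as Oraov1, whose mean was 16.3 ± 1.81 CPM over the GL261 and 13.7 ± 1.99 CPM over the mNS libraries (SD, n = 3 each). The means were 984 ± 28.2 CPM and 2422 ± 56.5 CPM (SD, n = 3 each), or 1.30 ± 0.05 on the log2 scale (SE; limma adjusted p = 1.90e-07; 95% interval 1.18 to 1.42).

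Ccnd2, encoding cyclin D2 and best known in neural progenitors and lymphoid cells, is on the minus strand of chromosome 6 (127125162 to 127152193). Its level was 490, 348 and 371 CPM in the GL261 libraries and 338, 398 and 428 CPM in the mNS libraries, in passage order. The highest and the lowest value of the gene were the earliest passage of GL261 and of mNS, and the groups overlapped. The log2 difference was -0.05 ± 0.13 (SE; limma adjusted p = 0.775), with a 95% interval of -0.35 to 0.26, and its sign turned to 0.10 without GL261 passage 17. Ccnd3, encoding cyclin D3, lies on the plus strand of chromosome 17 (47505051 to 47599691). It was at 218, 177 and 178 CPM in GL261 and 213, 167 and 171 CPM in mNS, so that in both cultures the earliest passage was the highest. The difference of -0.06 ± 0.11 (SE; limma adjusted p = 0.669; 95% interval -0.32 to 0.20) was smaller than the spread within a group, and its sign turned without GL261 passage 17 (0.0396) or mNS passage 77 (0.00427).

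Because these 3 cyclins bind the same kinases, their levels were also compared per kb of annotated exon, which allows levels of different genes to be set side by side. The summed D-type level was 280, 266 and 275 CPM per kb in GL261 and 568, 590 and 571 CPM per kb in mNS. Ccnd1 made up 72.5%, 78.5% and 78.2% of that sum in the GL261 libraries and 89.4%, 89.6% and 88.6% in the mNS libraries. The Ccnd2 share went from 15.6% ± 2.58 in GL261 to 7.15% ± 0.82 in mNS and the Ccnd3 share from 7.95% ± 0.81 to 3.64% ± 0.55 (SD, n = 3 each). The groups did not overlap for any of these shares. The smaller shares of Ccnd2 and Ccnd3 in mNS thus came with CPM values that were not called different, in a sum that held more Ccnd1. With the longest transcript in place of all exons, Ccnd1 made up 70.0% in GL261 and 85.6% in mNS, and the Ccnd3 share was 13.1% and 6.30%.

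**Figure D2:**
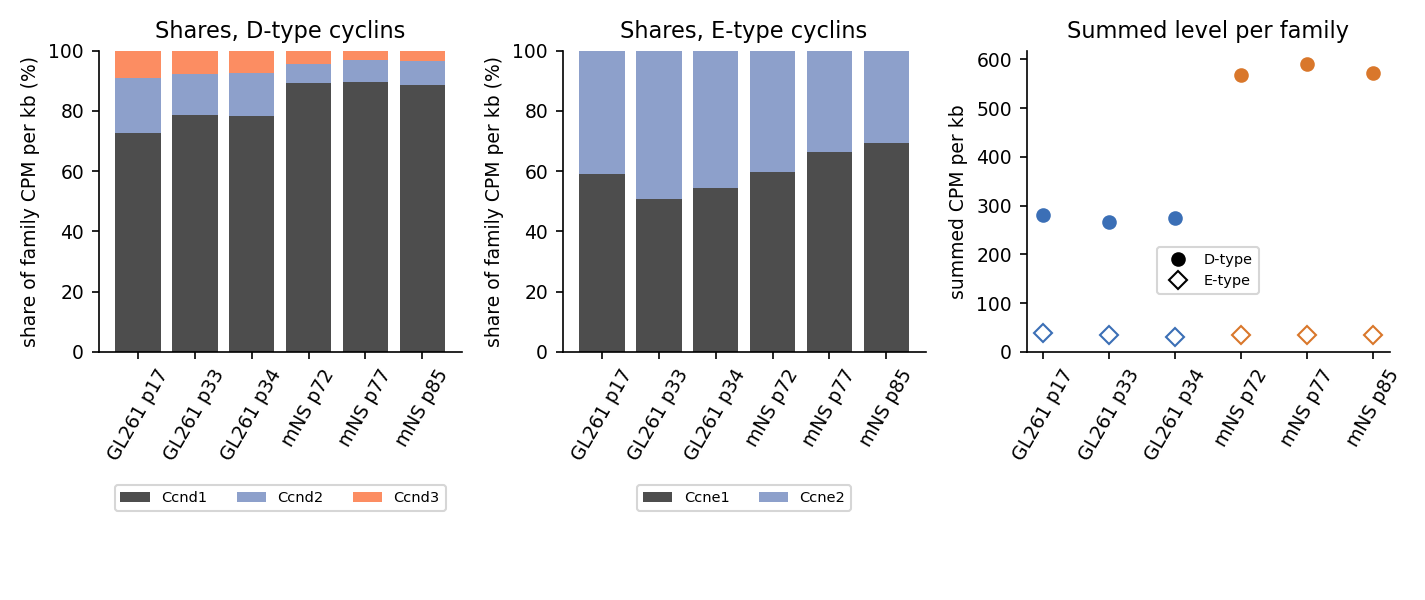
Share of each gene in the summed CPM per kb of exon of its family (percent, stacked bars, 1 bar per library) for the D-type and the E-type cyclins, and the summed CPM per kb of each family in each library (points). Ccnd1 takes 72.5% to 78.5% of the D-type sum in GL261 and 88.6% to 89.6% in mNS, and the D-type sum is 266 to 280 CPM per kb in GL261 and 568 to 590 CPM per kb in mNS.

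Of the E-type cyclins, Ccne2 was called lower in mNS by a small amount, and Ccne1 was not called. Ccne2 (cyclin E2, plus strand of chromosome 4, 11191351 to 11204779) was at 55.8, 58.4 and 47.5 CPM in GL261 and 47.3, 41.1 and 37.7 CPM in mNS. Exons of Ccne2 share 609 bases with those of Ints8 on the other strand. Ints8 had a mean of 94.9 ± 11.1 CPM in GL261 and 106 ± 3.33 CPM in mNS (SD, n = 3 each). For Ccne2, the lowest GL261 library and the highest mNS library were almost level. The fall was 1.28-fold, from 53.9 ± 5.67 CPM to 42.0 ± 4.83 CPM (SD, n = 3 each), or -0.35 ± 0.11 on the log2 scale (SE; limma adjusted p = 0.0206). The call did not hold without GL261 passage 33 (-0.29; adjusted p = 0.0810), mNS passage 77 (-0.34; adjusted p = 0.0661) or mNS passage 85 (-0.28; adjusted p = 0.0705), nor with all columns scaled to a common sum (-0.26; adjusted p = 0.0616).

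Ccne1 (cyclin E1, minus strand of chromosome 7, 38097984 to 38107534) was at 61.5, 45.5 and 43.1 CPM in GL261 and 53.1, 61.7 and 64.9 CPM in mNS. GL261 passage 17 lay among the mNS libraries, and the other GL261 libraries lay below all of them. The log2 difference of 0.27 ± 0.14 was not called (SE; limma adjusted p = 0.121; 95% interval -0.05 to 0.58). It was called without GL261 passage 17 (0.42; adjusted p = 0.00582) and with columns scaled to a common sum (0.36; adjusted p = 0.0492). Per kb, Ccne1 made up 59.1%, 50.6% and 54.4% of the E-type sum in GL261 and 59.6%, 66.3% and 69.3% in mNS, groups that did not overlap but came within 1 percentage point of each other. The E-type sum itself was 39.1, 33.8 and 29.8 CPM per kb in GL261 and 33.5, 34.9 and 35.2 CPM per kb in mNS, and these overlapped.

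All 3 kinases were lower in mNS, Cdk6 by the most. Upstream sequences of the kinases Cdk4 and Cdk2 and of the inhibitors Cdkn1b and Cdkn2c are shown here, as a selection of called members that moved in both directions. They are RefSeq bases (GRCm38.p6) before the gene's start, with bases in annotated exons left out. Capitals mark CACGTG (the E-box word bound by Myc with Max) and CCAAT (the word bound by NF-Y), found on either strand and printed as they read 5′ to 3′ along the gene. The first is the Cdk4 stretch at chr10:127063285-127063533 (plus strand), the next the Cdk2 stretch at chr10:128705052-128705179 (minus strand), then the Cdkn1b stretch at chr6:134920151-134920400 (plus strand) and the stretch before the downstream start of Cdkn2c at chr4:109665373-109665609 (minus strand).
Cdk4: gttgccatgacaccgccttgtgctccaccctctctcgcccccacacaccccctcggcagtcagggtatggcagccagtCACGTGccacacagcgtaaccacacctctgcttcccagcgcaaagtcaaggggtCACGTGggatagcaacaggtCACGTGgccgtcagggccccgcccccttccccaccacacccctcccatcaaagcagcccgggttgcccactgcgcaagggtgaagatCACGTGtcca
Cdk2: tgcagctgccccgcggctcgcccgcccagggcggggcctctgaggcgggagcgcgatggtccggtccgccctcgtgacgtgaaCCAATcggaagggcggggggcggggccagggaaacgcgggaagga
Cdkn1b: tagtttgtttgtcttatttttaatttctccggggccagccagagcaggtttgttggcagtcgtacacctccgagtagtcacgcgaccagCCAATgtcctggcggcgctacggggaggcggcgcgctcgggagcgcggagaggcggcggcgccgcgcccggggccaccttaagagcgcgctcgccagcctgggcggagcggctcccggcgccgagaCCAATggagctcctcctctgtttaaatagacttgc
Cdkn2c: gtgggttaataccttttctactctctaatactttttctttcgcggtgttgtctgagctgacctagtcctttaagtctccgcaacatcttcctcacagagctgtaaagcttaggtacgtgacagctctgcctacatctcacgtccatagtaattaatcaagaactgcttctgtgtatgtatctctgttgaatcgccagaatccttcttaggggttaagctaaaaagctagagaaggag
The Cdk4 stretch holds 4 E-boxes, whose first bases lie 172, 118, 98 and 11 bases before the start. Of 32851 windows of 250 bases before a start, 6.02% held an E-box and 7 windows (0.0213%) held 4 or more. The limit of 4 equals the count in the Cdk4 stretch, so this share describes that stretch and is no test. The Cdk2 stretch has a CCAAT word 45 bases before the start, and the Cdkn1b stretch has 2, at 161 and 35 bases. A CCAAT word was in 33.8% of windows. The Cdkn2c stretch held none of the words searched, which besides these were GTAAACA for FOXO factors (3.17% of windows) and TTTCCCGC, TTTGGCGC, TTTCGCGC and TTTGCCGC for E2F (1.86% of windows). Among the other members with a window, Cdk6 had an E-box 220 bases before the RefSeq start used. That start, at 3343893, lies inside the annotated gene, which begins at 3341485. Ccnd3 had a CCAAT word 108 bases before one start and a FOXO word 243 bases before another. Cdk6 was also called, and the longest stretch of its window outside exons, 104 bases, held none of the words and is not shown. The only E2F word in the window of a member was 140 bases before the Cdk2 start, inside an exon of the neighbouring gene Pmel. RefSeq windows were matched for 7 of the 10 members. A match of letters is a description and not evidence of binding.

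Cdk4, the main partner of the D-type cyclins in most cell types, lies on the plus strand of chromosome 10 (127063534 to 127067920). It was at 653, 711 and 717 CPM in GL261 and 557, 551 and 547 CPM in mNS. The mNS libraries were close together and all below GL261. The fall was 1.26-fold, from 694 ± 35.6 CPM to 551 ± 5.15 CPM (SD, n = 3 each; log2 difference -0.33 ± 0.06 SE; limma adjusted p = 0.000966). Under quantile normalisation it was not called (-0.12; adjusted p = 0.113). Exons of Cdk4 share 641 bases with exons of Tspan31 on the other strand, and Tspan31 was also lower in mNS, at 195 ± 7.08 CPM against 153 ± 9.36 CPM (SD, n = 3 each; log2 difference -0.35; limma adjusted p = 0.00160). Myc, the factor that binds the E-box word, had a mean of 103 ± 4.75 CPM over the GL261 and 173 ± 22.4 CPM over the mNS libraries (SD, n = 3 each), 1.69-fold higher (log2 difference 0.74 ± 0.10 SE; limma adjusted p = 0.000194). Myc RNA was higher and Max RNA lower in the culture in which Cdk4 RNA was lower, and links between them were not tested.

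Cdk6, the other partner of the D-type cyclins, is on the plus strand of chromosome 5 (3341485 to 3531008). It was at 47.5, 53.1 and 58.4 CPM in GL261 and 20.6, 25.9 and 28.5 CPM in mNS. The groups did not overlap, and in both of them the earliest passage was the lowest. The fall was 2.12-fold, from 53.0 ± 5.44 CPM to 25.0 ± 4.01 CPM (SD, n = 3 each), or -1.06 ± 0.13 on the log2 scale (SE; limma adjusted p = 0.000126; 95% interval -1.36 to -0.77). Cdk2, the kinase of the E-type cyclins, is on the minus strand of chromosome 10 (128697939 to 128705031) and was at 129, 124 and 125 CPM in GL261 and 99.0, 95.5 and 97.7 CPM in mNS. The libraries of a group were within a few CPM of each other, and the groups did not overlap. The fall was 1.29-fold, from 126 ± 2.71 CPM to 97.4 ± 1.76 CPM (SD, n = 3 each; log2 difference -0.37 ± 0.06 SE; limma adjusted p = 0.000517).

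Cdk4 stood in different proportions to Cdk6 and to Ccnd1 in the cultures. The Cdk2 share of the summed kinase level per kb overlapped between them, at 8.55% ± 0.59 in GL261 and 8.37% ± 0.12 in mNS (SD, n = 3 each). The CPM ratio of Cdk4 to Cdk6 was 13.1 ± 0.761 in GL261 and 22.5 ± 4.05 in mNS, and Cdk6 made up 1.74% ± 0.10 and 1.04% ± 0.17 of the summed Cdk4 and Cdk6 level per kb (SD, n = 3 each). The ratio of Ccnd1 to Cdk4 went from 1.42 ± 0.042 to 4.39 ± 0.111. The Cdk4 to Cdk6 and Ccnd1 to Cdk4 ratios did not overlap between groups. Mki67, a marker of proliferating cells, fell from 1558 ± 34.6 CPM to 859.9 ± 16.8 CPM in mNS (SD, n = 3 each; log2 difference -0.86; limma adjusted p = 1.75e-06), and it moved with the kinases. Relative to Mki67, Cdk4 and Cdk2 were higher in mNS: the Cdk4 ratio was 0.445 ± 0.013 in GL261 and 0.642 ± 0.018 in mNS, and the Cdk2 ratio 0.081 ± 0.0035 and 0.113 ± 0.0031. The Cdk6 ratio to Mki67 overlapped between groups, at 0.034 ± 0.0028 and 0.029 ± 0.0042. The part of proliferation in the kinase levels was not tested.

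The inhibitors moved in opposite directions: Cdkn1b rose in mNS and Cdkn2c fell. Cdkn2c, on the minus strand of chromosome 4 (109660876 to 109667189), was at 22.4, 33.2 and 32.6 CPM in GL261 and 8.98, 9.51 and 12.2 CPM in mNS. GL261 passage 17 was the lowest of its group and still above every mNS library. The fall was 2.88-fold, from 29.4 ± 6.04 CPM to 10.2 ± 1.71 CPM (SD, n = 3 each), or -1.43 ± 0.17 on the log2 scale (SE; limma adjusted p = 0.000118; 95% interval -1.82 to -1.03). Its mNS values rest on 119, 123 and 172 reads.

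Cdkn1b, on the plus strand of chromosome 6 (134920401 to 134925513), was at 26.4, 27.0 and 24.4 CPM in GL261 and 47.8, 34.9 and 32.6 CPM in mNS. The GL261 libraries were close together, and mNS passage 72 stood above the other mNS libraries. The rise was 1.48-fold, from 25.9 ± 1.34 CPM to 38.4 ± 8.18 CPM (SD, n = 3 each; log2 difference 0.53 ± 0.14 SE; limma adjusted p = 0.00902). Without mNS passage 72 it was 1.30-fold (0.37; adjusted p = 0.00964). The p27 protein is known to be set largely by its turnover, which RNA levels do not show.

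Of 5 other CDK inhibitors, 2 were called (40%, beside 64.3% of all genes), 2 higher and 0 lower, with a median log2 difference of 0.36. Another, Cdkn2d, was called lower without GL261 passage 17, with libraries centred on their median gene and under quantile normalisation. Cdkn2b (p15Ink4b), the INK4 inhibitor induced by TGF-β, rose 2.49-fold from 10.4 ± 0.961 CPM to 25.9 ± 0.602 CPM (SD, n = 3 each; log2 difference 1.24 ± 0.10 SE; limma adjusted p = 1.15e-05). Cdkn2a, whose symbol covers the transcripts of both p16Ink4a and p19Arf, rose from 88.9 ± 2.72 CPM to 128 ± 6.70 CPM (SD, n = 3 each; log2 difference 0.52 ± 0.06 SE; limma adjusted p = 0.000147). The neighbours Cdkn2a (89274471 to 89294653) and Cdkn2b (89306299 to 89311039) thus both had reads in both cultures and were higher in mNS, whereas Cdkn2c on the same chromosome was lower. The CPM ratio of Cdkn2b to Cdkn2c was 0.360 ± 0.048 in GL261 and 2.57 ± 0.343 in mNS (SD, n = 3 each).

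The remaining inhibitors were not called. Cdkn1a (p21Cip1), a target of p53, was at 50.5 ± 9.43 CPM and 50.9 ± 3.20 CPM (SD, n = 3 each; log2 difference 0.03; limma adjusted p = 0.869). Cdkn2d (p19Ink4d) was at 48.1 ± 5.90 CPM and 40.1 ± 2.29 CPM (SD, n = 3 each; log2 difference -0.25; limma adjusted p = 0.0616), and was called lower without GL261 passage 17 (-0.35; adjusted p = 0.00525). Cdkn1c (p57Kip2) was near the lower end of the table at 1.09 ± 0.275 CPM and 1.72 ± 0.671 CPM (SD, n = 3 each; log2 difference 0.36; limma adjusted p = 0.157).

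**Figure D3:**
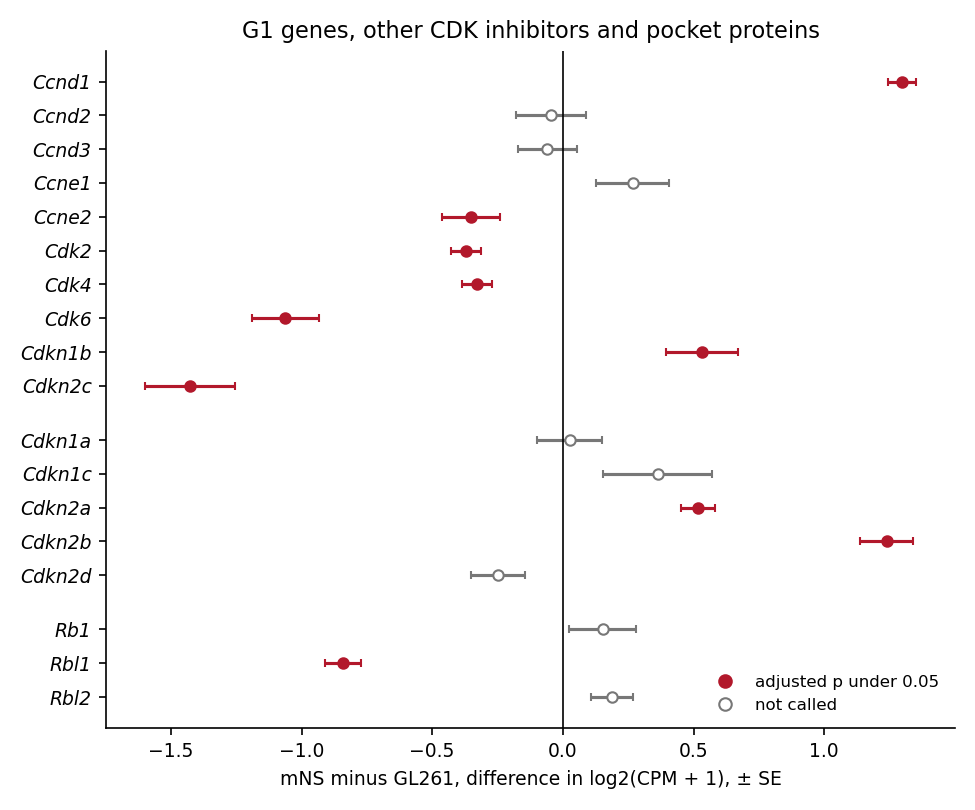
Difference between mNS and GL261 in log2(CPM + 1) with its standard error for the 10 genes, the 5 other CDK inhibitors and the 3 pocket proteins. Filled red points have an adjusted p under 0.05 in the limma fit, and open grey points do not; Ccnd1 at 1.30 and Cdkn2b at 1.24 lie farthest to the right and Cdkn2c at -1.43 farthest to the left.

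Levels were ordered per kb of exon. In GL261, Cdk4 (213 ± 10.9 CPM per kb) and Ccnd1 (209 ± 5.99) were highest and overlapped, followed by Ccnd2 (42.9 ± 8.06), Ccnd3 (21.8 ± 2.68), Cdk2 (20.3 ± 0.44), Ccne1 (18.8 ± 3.75), Ccne2 (15.4 ± 1.62), Cdkn2c (10.9 ± 2.25), Cdkn1b (5.70 ± 0.29) and Cdk6 (3.79 ± 0.39; SD, n = 3 each). From Ccnd3 to Ccne2 each gene overlapped with its neighbour in this order, while Ccnd2 and the last 3 genes were separate from theirs. In mNS, Ccnd1 (514 ± 12.0 CPM per kb) was above Cdk4 (170 ± 1.59), then came Ccnd2 (41.2 ± 4.88), Ccne1 (22.5 ± 2.30), Ccnd3 (20.9 ± 2.86), Cdk2 (15.7 ± 0.28), Ccne2 (12.0 ± 1.38), Cdkn1b (8.44 ± 1.80), Cdkn2c (3.81 ± 0.64) and Cdk6 (1.79 ± 0.29; SD, n = 3 each). Of these neighbours, Ccne1 and Ccnd3 overlapped and the others did not. The inhibitors thus stood in opposite order in the cultures, with Cdkn2c above Cdkn1b in GL261 and below it in mNS. With the longest transcript as the length, the GL261 order was the same, and Ccnd3 stood above Ccne1 in mNS. The neighbours that overlapped were then Ccnd2 and Ccnd3 in GL261, and Ccnd2 and Ccnd3 as well as Ccne1 and Cdk2 in mNS.

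Downstream of the kinases, 7 of 13 genes for pocket proteins, E2F and DP factors were called (53.8%, beside 64.3% of all genes). Of the 13, 1 was called higher and 6 lower in mNS (median log2 difference -0.16). The number higher was 4 with columns scaled to a common sum and 2 under quantile normalisation or without GL261 passage 33, mNS passage 72 or mNS passage 85. Rbl1 (p107), a pocket protein that is itself an E2F target, fell 1.80-fold from 114 ± 4.81 CPM to 63.1 ± 3.24 CPM (SD, n = 3 each; log2 difference -0.84 ± 0.07 SE; limma adjusted p = 1.14e-05). The retinoblastoma gene Rb1 (0.15; adjusted p = 0.323) and Rbl2 (p130; 0.19; adjusted p = 0.0688) were not called. Rbl2 was called higher with a common sum (0.28; adjusted p = 0.0140), under quantile normalisation (0.21; adjusted p = 0.0418) and without GL261 passage 33 (0.24; adjusted p = 0.0496). The repressors E2f6 and E2f8 differed by -0.87 and -0.62 on the log2 scale. The activator E2f2 differed by -0.62 (adjusted p = 0.0256), a call that did not hold without GL261 passage 33 (adjusted p = 0.0632), GL261 passage 34 (0.0675), mNS passage 77 (0.0657) or mNS passage 85 (0.0580).

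Of 20 E2F target genes of S phase entry, 15 were called (75%, beside 64.3% of all genes), 3 higher and 12 lower (median -0.31). The number of list genes called higher was 1 without GL261 passage 33 or mNS passage 85, and 5 under quantile normalisation. Cdt1, which licenses replication origins, was lower by -0.95 on the log2 scale, Tk1 (thymidine kinase) by -0.87 and Rrm2 (a subunit of ribonucleotide reductase) by -0.80. Uhrf1, which helps maintain DNA methylation, went the other way, from 205 ± 1.84 CPM to 411 ± 35.2 CPM (SD, n = 3 each; log2 difference 0.99). The summed level of the list was 4218 to 4535 CPM in GL261 and 3708 to 3836 CPM in mNS. Of 14 regulators of G2 and M phase, 10 were called (71.4%, beside 64.3% of all genes), 0 higher and 10 lower (median -0.65). Foxm1, a transcription factor of G2 and M phase genes, fell from 201 ± 19.6 CPM to 98.2 ± 6.70 CPM (SD, n = 3 each; log2 difference -1.02), and Cdc25c and Cdc20, which drive mitotic entry and exit, differed by -0.81 and -0.80. The summed level was 6249 to 7028 CPM in GL261 and 4080 to 4557 CPM in mNS. Cdk2, Cdk4, Cdk6, Ccne2 and Cdkn2c were lower in the same libraries. The CPM ratio to Mki67 was 0.0188 ± 0.0035 in GL261 and 0.0119 ± 0.0017 in mNS for Cdkn2c. For Ccne2 it went the other way, from 0.0346 ± 0.0041 to 0.0490 ± 0.0065 (SD, n = 3 each). Neither ratio overlapped between groups. The part of the share of cycling cells in these levels was not tested.

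Genes that activate the G1 kinases or turn over their partners were called in 11 of 22 cases (50%, beside 64.3% of all genes). Of these 22, 7 were called higher and 4 lower (median 0.09), or 10 higher and 3 lower with columns scaled to a common sum. Among them Usp28 and Usp2, deubiquitinases, differed by 1.02 and 0.93 on the log2 scale. Ambra1, the adaptor through which CUL4 ligases mark D-type cyclins for degradation, differed by 0.56, and Cul1, the scaffold of SCF ligases, by 0.51. The 4 called lower were Cul3 (-0.48), Fbxo4 (-0.46), Cks1b (-0.33) and Mnat1 (-0.31). Skp2, which marks p27 for degradation, was at 137 ± 13.3 CPM and 119 ± 1.63 CPM (SD, n = 3 each; log2 difference -0.20; limma adjusted p = 0.0504) and was not called. It was called lower with no filter on low values (adjusted p = 0.0498), with libraries centred on their median gene (0.0385) and without GL261 passage 34 (-0.27; adjusted p = 0.0123). Fbxw7, which marks cyclin E and Myc, differed by -0.03 (limma adjusted p = 0.791).

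Of the 25 other cyclins and CDKs, 12 were called (48%, beside 64.3% of all genes), 7 higher and 5 lower (median 0.05). Ccng2 (cyclin G2), a FOXO target linked to arrest, differed by 1.01 on the log2 scale, Cdk17 by -1.21, Ccny (cyclin Y) by -0.95 and Cntd1 by -2.16. Cntd1 shares 3104 exonic bases with Becn1 on the other strand, so its reads are uncertain. Among 14 tested transcriptional regulators of D-type cyclins and Cdkn1b, 9 were called (64.3%, beside 64.3% of all genes). Of the 14, 3 were called higher and 6 lower (median -0.05). Without GL261 passage 33, or with columns scaled to a common sum, 3 were lower, and without any 1 mNS library 4 were lower. All 3 that were higher are named here: Foxo1 (1.25) and Foxo4 (0.81), FOXO factors that activate Cdkn1b, and Myc (0.74). Foxo3, in the same list, was not called (0.16, limma adjusted p = 0.439). Fosl1, an AP-1 subunit that can act on Ccnd1, was lower at -2.07, from 8.10 CPM to 1.17 CPM. It shares 1163 exonic bases with Ccdc85b on the other strand, so its reads are uncertain too. Among the other genes named, Rb1, Rbl2, E2f8, Cdc25c and Foxo1 also share exonic bases with a gene on the other strand. Fos (-0.62), Ctnnb1 (-0.43), Jun (-0.38), Junb (-0.35) and Max (-0.31) were the remaining regulators called lower. Links of these regulators to the levels of Ccnd1 or Cdkn1b were not tested.

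**Figure D4:**
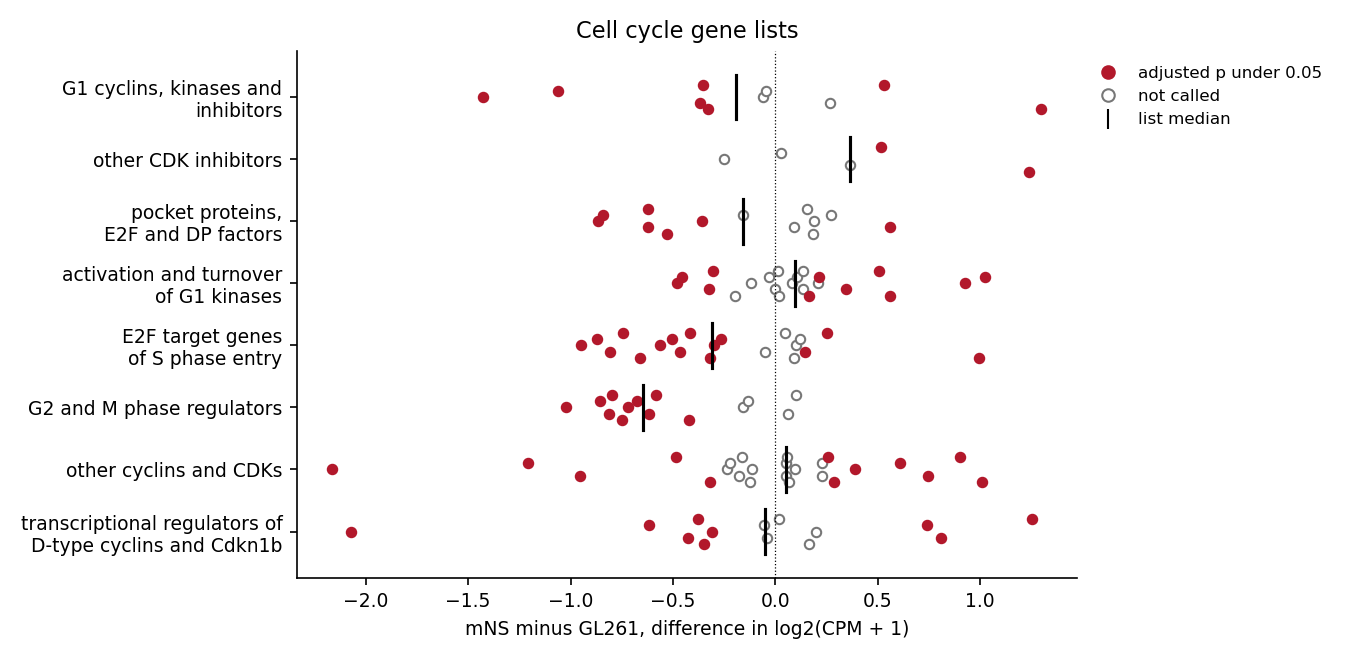
Difference between mNS and GL261 in log2(CPM + 1) for each tested gene of the 8 lists, the 10 members first, with a bar at the list's median. Filled red points have an adjusted p under 0.05; the medians run from -0.65 for G2 and M phase regulators to 0.36 for the other CDK inhibitors, beside -0.0027 for all genes.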

How the data were processed

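The deposited table holds, per the series' design text and its values, CPM with TMM factors that the authors made from read counts per gene (a signal scaled to library size). Per the submitters' processing notes, which give no roles, the tools were TopHat2 (version 2), HTSeq 0.5.3p9 and edgeR 3.4.2, with the build mm10. The libraries were made from ribosome-depleted total RNA with a stranded kit, per the labels' protocols; the strand setting and the handling of multiply mapped reads are not given in the sources used here. Values were whole multiples of the worth of 1 read (0.0708 to 0.0773 CPM) for 100% of entries within 0.001 reads, so whole reads were recovered. The table lists 12151 genes, and its rules for leaving out others are not given in the sources used here.

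Main calls came from limma 3.58.1 (R 4.3.3; trended variance, two-sided) on log2(CPM + 1), a scale that understates changes of low genes, for 12006 genes averaging 1 CPM or more, with Benjamini-Hochberg adjustment over all of them. The fit was also run on simulated data with few changed genes, a setting unlike these data, so that run does not bear on the calls here. Each gene had 16 alternatives: pseudocounts of 0.5 and 0.1, no filter, 3 scalings, edgeR 4.0.16 (quasi-likelihood and exact tests) and DESeq2 1.42.0 on recovered reads, an adjusted p under 0.01, and each library left out. Lengths and positions came from the GENCODE M21 annotation of GRCm38. Lists were read by their counts and medians beside those of all genes.

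Genes named by rule were the 10 members, the other CDK inhibitors, the pocket proteins, Skp2, Myc and Fbxw7. From each other list, the rule named up to 4 called genes with the largest difference and at least 5 CPM in the higher group. Tspan31, Ints8, the marker genes given with values and the other genes named outside this rule were singled out after their values were seen. Members and lists were chosen with earlier results of these data known. Of 141 genes in the other lists, 125 were listed in the table. The human cultures named in the growth protocol were not analysed here.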

Additional observations from a re-analysis of the deposited data

How the results depend on the processing

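Of 160 combinations of a member and an alternative, 144 kept the direction and the side of the threshold, 6 lost the call, 2 gained one and 8 turned in sign; Ccnd1, Cdk2, Cdk6, Cdkn1b and Cdkn2c kept both under all 16 alternatives. The range over the alternatives was 1.28 to 1.44 (log2) for Ccnd1, -0.39 to -0.28 for Cdk2, -1.16 to -0.93 for Cdk6, 0.37 to 0.64 for Cdkn1b and -1.60 to -1.33 for Cdkn2c. The sign turned for Ccnd2 and Ccnd3, called in no alternative: Ccnd2 was at 0.0442 with a common sum, at 0.12 under quantile normalisation and from -0.14 to 0.10 with a library left out, and Ccnd3 at 0.0315, 0.0321 and from -0.17 to 0.0396. Among the other named genes, Cdkn1a ranged from -0.0527 to 0.17 with a library left out, and Fbxw7 was at 0.0560 with a common sum and ranged from -0.10 to 0.0515 with a library left out. Among the other CDK inhibitors, which leave out the members, those called lower numbered 1 with median centring and 1 under quantile normalisation. With a library left out they numbered 0 to 1. Pocket protein, E2F and DP genes called higher numbered 4 with a common sum, 2 under quantile normalisation and 1 to 2 with a library left out. E2F targets called higher numbered 5 under quantile normalisation, 1 at an adjusted p under 0.01 and 1 to 3 with a library left out. Transcriptional regulators of D-type cyclins and Cdkn1b called lower numbered 3 with a common sum and 3 at an adjusted p under 0.01. With a library left out they numbered 3 to 6. With the longest transcript as the length, the share of Ccnd1 was 70.0% in GL261 and 85.6% in mNS, that of Ccnd2 8.10% in mNS, and that of Ccnd3 13.1% and 6.30%. The causes were not tested.

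Over the whole table, 7714 genes were called by limma, 7651 by edgeR's quasi-likelihood test, 7495 by its exact test and 7353 by DESeq2. No paired analysis was possible because the labels give the groups no shared replicate numbers. Cdkn1c, at 1.09 CPM in GL261, is limited by depth, as 1 read is worth 0.0708 to 0.0773 CPM.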
